A study of Mus musculus with 12 samples.

Results

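Mutyh and 5 partner genes of base excision repair, Ogg1, Ung, Mpg, Parp2 and Pcna, were followed by DNA copy number through 12 mouse tumours. The genes were chosen by name, and their probes were all array features that carry one of these 6 gene names and are not controls. That gave 7 probes, 2 of them in Mutyh and 1 in each other gene, out of 161460 autosomal probes, and 6 genes out of 20281 autosomal genes with a value on every array. The probes within 500 kb of each gene, its own left out, gave a local level, so that a change of the gene itself could be told from a change of its region. The question was whether tumours without Mutyh gain or lose these 5 partner genes.

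The tumours came from C57BL/6 mice that were either Mutyh knockouts (KO) or wild type (WT). Renal cell carcinomas from mice given Fe-NTA, ferric nitrilotriacetate, an iron chelate that causes oxidative damage in the kidney, numbered 3 from KO mice (KO1080, KO1097, KO1134) and 1 from a WT mouse (WT1179). Malignant lymphomas after Fe-NTA numbered 2 from KO mice (KO1077, KO1111) and 3 from WT mice (WT1113, WT1114, WT1121), and lymphomas of untreated mice 1 from a KO mouse (KO1414) and 2 from WT mice (WT1405, WT1420). Treatment had begun with groups of 20 male mice, injected into the abdomen 5 times weekly over 12 weeks with 3 mg iron per kg in week 1 and 5 mg thereafter, and the mice were killed at about 120 weeks. Each tumour, labelled with Cy5, shared its array with normal kidney DNA of C57BL/6 mice, labelled with Cy3. A log2 ratio above 0 stands for an excess of tumour over reference DNA, and every ratio below is log2, relative to the most common autosomal ratio of its array. Each tumour came from a different animal and is 1 value in every comparison, and the construction of the KO allele was not given in the sources used here.

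The signal to noise ratio lay between 63.6 and 123.7 on all arrays in both colours. The 12 arrays sat on 3 slides, with the carcinomas alone on slide 1, KO1077, KO1111, WT1113 and WT1114 on slide 2, and KO1414, WT1121, WT1405 and WT1420 on slide 3. Tumour type and slide 1 cannot be told apart. As a check of the tumour labels, losses of at most 10 Mb were sought beside the antigen receptor loci, which lymphocytes cut when they assemble their receptors. Such losses within 2 Mb of the neighbouring gene marked Igh in 7 of 8 lymphomas, Igk and Tcra/Tcrd each in 5 and Tcrb in 4, whereas the 4 carcinomas had 0 at every locus. Lymphoma WT1405 had a call at none of the 4. The segment profiles of the tumours correlated in pairs at -0.10 to 0.73, highest for KO1080 and KO1097 (0.729), WT1113 and WT1114 (0.686), KO1111 and KO1414 (0.672), and KO1077 and KO1111 (0.669).

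Base excision repair removes a damaged base and rebuilds the site from the opposite strand. A DNA glycosylase cuts out the base, an endonuclease opens the backbone, and a polymerase and a ligase close the gap. Oxidised guanine can pair with adenine as well as with cytosine, and OGG1 and MUTYH guard against the mutation that follows. OGG1 cuts out the oxidised guanine opposite cytosine, and MUTYH cuts out the adenine that a polymerase has placed opposite it. UNG removes uracil, MPG removes alkylated purines and hypoxanthine, PARP2 marks strand breaks with poly-ADP-ribose, and PCNA is the sliding clamp of replication, to which MUTYH binds.

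The 60-base probes that read the 6 genes are printed below because each value of a gene other than Mutyh rests on a single one of them. Their sequences are those of the array files, 5′ to 3′, with positions in mouse build mm9. Mutyh probe 1 reads chr4:116480656-116480715 and Mutyh probe 2 reads chr4:116490496-116490555. The Ogg1 probe lies at chr6:113280022-113280081, the Ung probe at chr5:114585819-114585878 and the Mpg probe at chr11:32131967-32132026. The Parp2 probe lies at chr14:51434342-51434401 and the Pcna probe at chr2:132078212-132078271. Whether each lies in an exon or an intron was not analysed here, since no annotation of mm9 was used.
Mutyh probe 1: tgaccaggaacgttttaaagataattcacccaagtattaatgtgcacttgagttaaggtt
Mutyh probe 2: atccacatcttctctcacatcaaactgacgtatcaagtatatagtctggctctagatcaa
Ogg1: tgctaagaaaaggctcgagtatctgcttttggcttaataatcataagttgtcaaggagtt
Ung: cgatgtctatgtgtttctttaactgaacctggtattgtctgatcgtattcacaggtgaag
Mpg: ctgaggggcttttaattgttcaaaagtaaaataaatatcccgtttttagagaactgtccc
Parp2: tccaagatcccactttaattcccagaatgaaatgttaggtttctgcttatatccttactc
Pcna: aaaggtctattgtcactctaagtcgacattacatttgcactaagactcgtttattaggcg

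The 7 probes were alike in base composition, with 35.0 to 40.0% G and C, and were not alike in brightness. Mutyh probe 2 had a mean reference signal of 4252, brighter than 98.4% of autosomal probes, and Mutyh probe 1 had 2799. The Mpg probe had 1340, Pcna 838, Ogg1 760, Ung 294 and Parp2 219, and only 2.0% of autosomal probes were dimmer than that of Parp2. Each was well above background in both colours on every array, with 0 saturated and 0 outlier spots. Each array carried the Mpg probe at 5 spots, which differed by an SD of 0.019 to 0.082 within an array. The local levels rested on 81 to 100 probes per gene, with standard errors of 0.012 to 0.030.

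Mutyh was lost at 1 of its 2 probes in every KO tumour. Probe 2 read -2.83, -3.04 and -3.21 in the KO carcinomas KO1080, KO1097 and KO1134, against -0.75 in the WT carcinoma WT1179. It read -2.44, -2.39 and -2.56 in the KO lymphomas KO1077, KO1111 and KO1414, against 0.01, -0.06, -0.11, -0.08 and 0.14 in the WT lymphomas WT1113, WT1114, WT1121, WT1405 and WT1420. The highest KO tumour thus lay below the lowest WT tumour by more than the whole range of the WT tumours. As a share of the reference signal, probe 2 kept 10.8 to 19.1% in the KO tumours, 59.3% in WT1179 and 92.7 to 110% in the WT lymphomas.

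Mutyh probe 1, 9840 bases away, carried no such loss. It read -0.32, -0.58 and -0.10 in KO1080, KO1097 and KO1134, against -0.82 in WT1179, and 0.04, 0.08 and 0.26 in the KO lymphomas, against 0.06, 0.09, 0.15, 0.14 and 0.20 in the WT lymphomas. After subtraction of the local level it averaged 0.12 ± 0.09 in KO tumours and 0.09 ± 0.11 in WT tumours (SD, n = 6 each), with overlapping groups. Probe 2 was the only one of the 100 probes in the Mutyh window at which each KO tumour lay at least 1 below each WT tumour. On its other side, the nearest probe starts at 116500752 and carries the name ENSMUST00000151670. It read 0.06, -0.03 and 0.14 in the KO lymphomas, against 0.04, 0.07, 0.02, 0.04 and 0.01 in the WT lymphomas. If both flanking probes are present over their full length, the sequence absent from the KO allele lies between bases 116480716 and 116500751 of chromosome 4, at most 20036 bases. The absent sequence holds some or all of the 60 bases of probe 2.

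**Figure D1:**
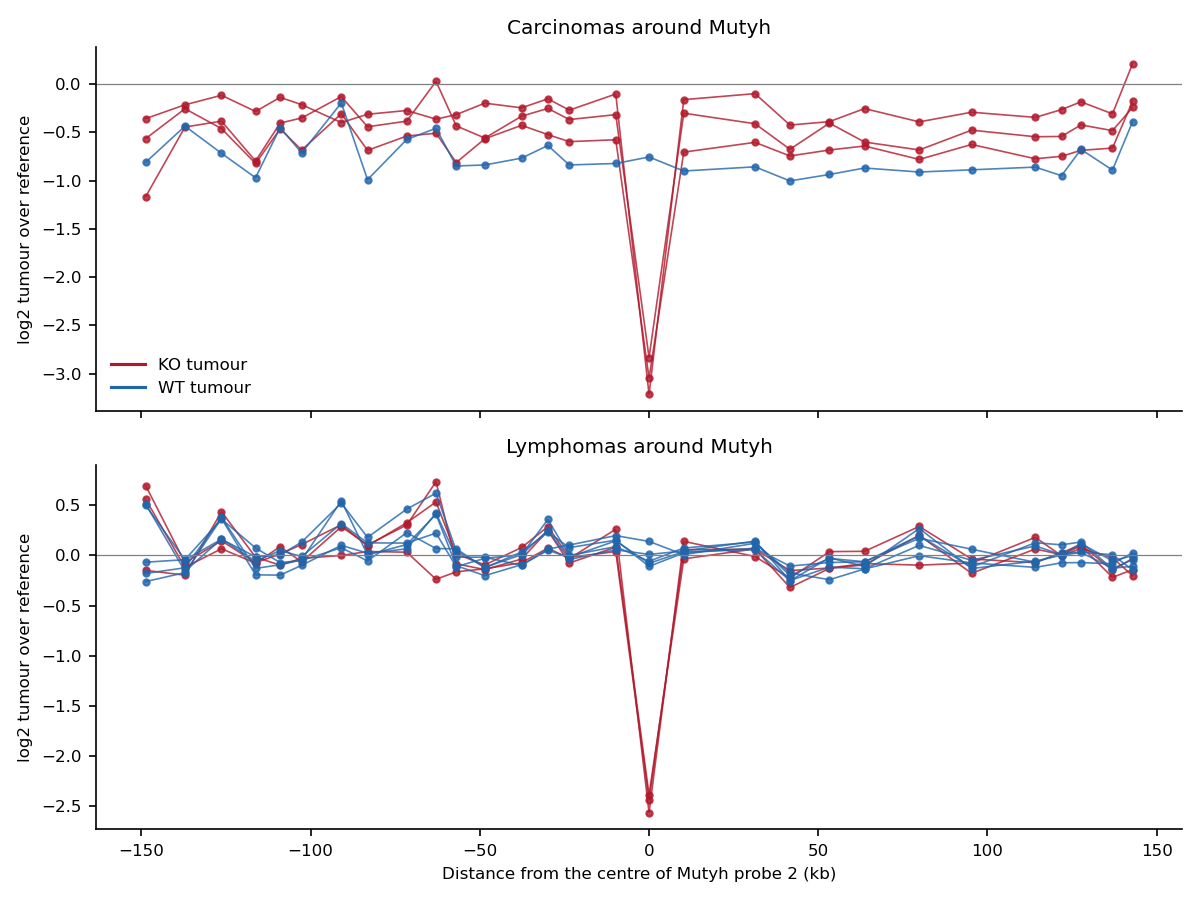
Log2 ratio of tumour over reference at each probe (y axis) against its distance in kb from the centre of Mutyh probe 2 (x axis), with carcinomas in the upper panel, lymphomas in the lower, KO tumours red and WT tumours blue. Only the probe at distance 0 separates KO from WT, at -3.21 to -2.39 in KO tumours and -0.75 to 0.14 in WT tumours, and most probes of the carcinomas of both genotypes lie below 0, with single probes of KO1080 and KO1134 above it.

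The second change at Mutyh was a loss of its whole region in the carcinomas of both genotypes. The local level was -0.44 in KO1080, -0.63 in KO1097 and -0.26 in KO1134, against -0.79 in WT1179. In the lymphomas it was 0.03, -0.01 and -0.02 in KO tumours, against 0.04, 0.07, 0.03, -0.05 and -0.03 in WT tumours, so the 4 carcinomas lay below all 8 lymphomas. A ratio from bulk DNA cannot tell a loss in all cells from a loss in some of them. The mean of chromosome 4 was of about the same size as the local level, with -0.45, -0.68 and -0.33 in the KO carcinomas, against -0.71 in WT1179. WT1179 thus had the lowest copy level of the Mutyh region, in a called segment of 108.37 Mb with a mean of -0.72. Its 2 Mutyh probes, at -0.82 and -0.75, lay within 0.04 of its local level. The order of depth was not particular to this region. At Pole2, a repair gene on chromosome 12, the local level was -0.46, -0.63 and -0.29 in KO1080, KO1097 and KO1134, against -0.77 in WT1179. At Tdp1, on the same chromosome, it was -0.47 in KO1080, -0.69 in KO1097 and -0.77 in WT1179, with 0.00 in KO1134. Tesk2, the nearest named gene on the left at 13.7 kb, read -0.32, -0.55 and -0.28 in the KO carcinomas, against -0.68 in WT1179. Zswim5, the nearest on the right at 63.6 kb, read -0.47, -0.62 and -0.22 in the KO carcinomas, against -0.78 in WT1179.

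Genotype was tested with limma over all 12 tumours, in a model with additive terms for genotype, tumour type and treatment, and p-values were adjusted over all autosomal genes (Benjamini-Hochberg). Differences are KO minus WT with their standard error. On gene values, 13 of 20281 genes passed, a share of 0.0641%, and 1038 had an unadjusted p under 0.05. Mutyh was 1 of them, at -1.12 ± 0.07 with an adjusted p of 1.99e-06, a mean over its intact and its deleted probe. Gene minus local level, for which 0.113% of genes passed, gave -1.21 ± 0.05 with an adjusted p of 8.35e-08. The local level of Mutyh did not pass, at 0.09 ± 0.08 with an adjusted p of 0.859, in a fit in which 0.0394% of genes did. The exact two-sided permutation test of genotype within tumour type gave 0.00446 for the Mutyh gene value, the smallest p that these 224 splits allow. Genotype is the state of Mutyh itself, so a difference at its deleted probe was set by the design. The Mutyh tests on gene value and gene minus local level thus only recover the genotype label.

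None of the 5 partner genes passed on the genotype test, in gene value, local level or gene minus local level. On gene values their differences were -0.11 ± 0.10 for Ogg1, 0.20 ± 0.14 for Ung, 0.19 ± 0.07 for Mpg, 0.07 ± 0.10 for Parp2 and 0.04 ± 0.06 for Pcna, with limma adjusted p-values of at least 0.846. On local levels, read from the probes around each gene, they were -0.10 ± 0.08 for Ogg1, 0.14 ± 0.13 for Ung, 0.16 ± 0.07 for Mpg, 0.02 ± 0.04 for Parp2 and 0.01 ± 0.03 for Pcna, with adjusted p-values of at least 0.859. Gene minus local level differed by -0.01 to 0.06. Of these 15 values, that of Mpg by gene value alone had an unadjusted p under 0.05, at 0.0185 in limma. A p that misses the threshold does not show that the groups are alike, and the larger standard error of Ung goes with the spread of its region between tumours, from -0.75 in WT1179 to 0.20 in WT1405.

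**Figure D2:**
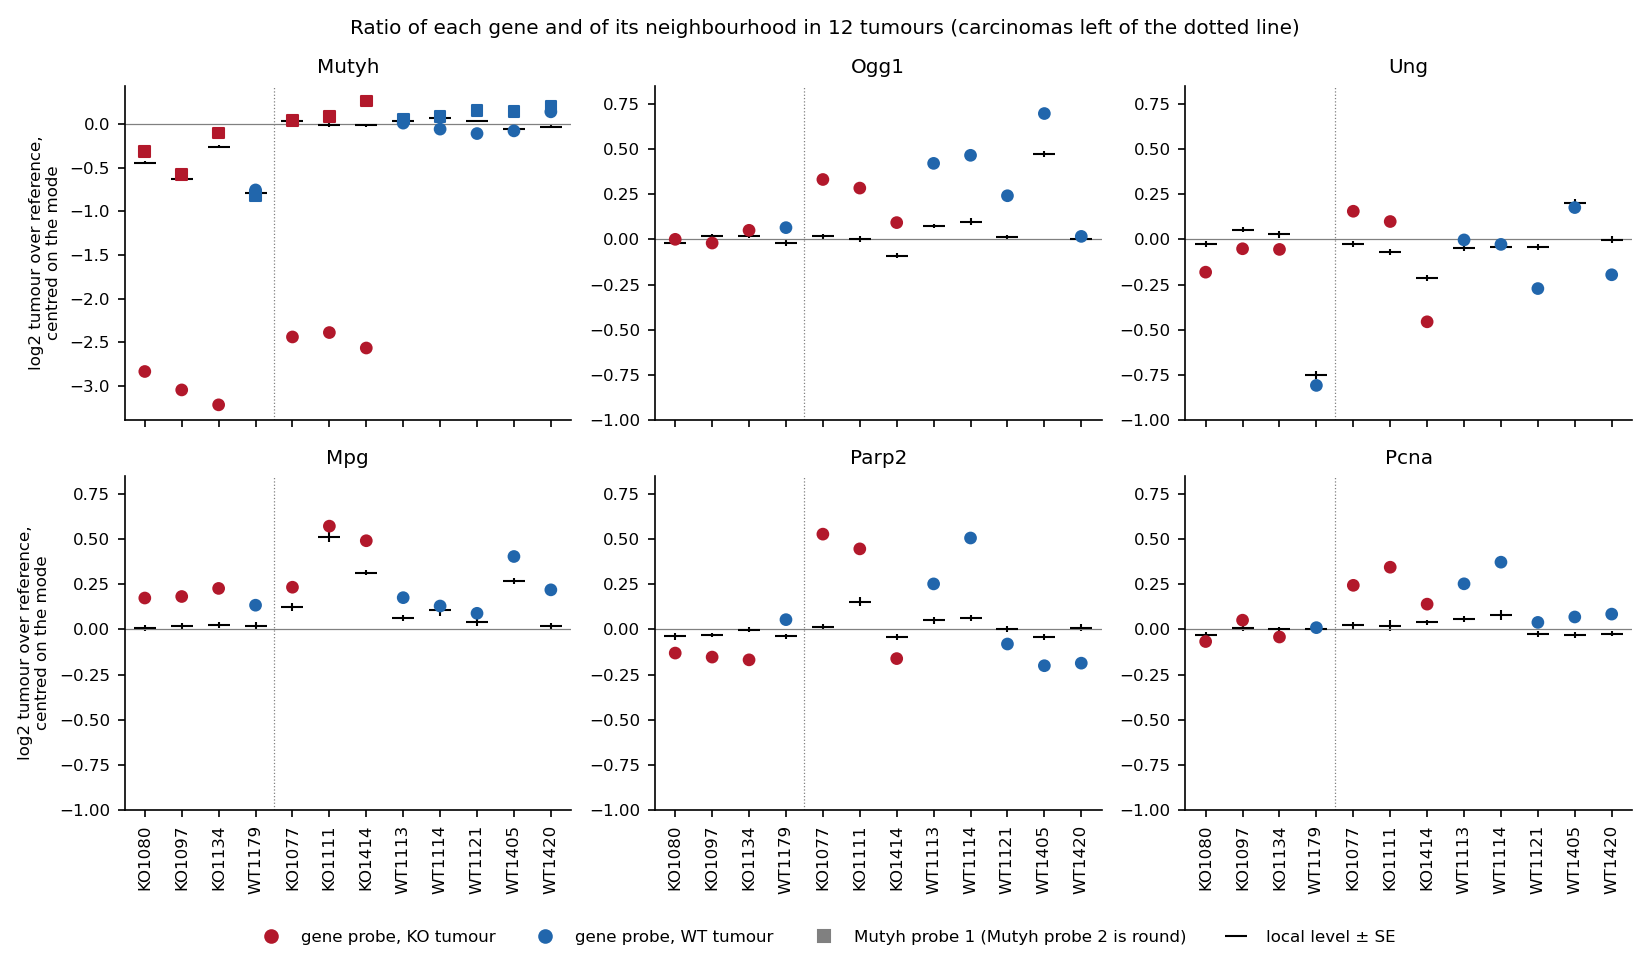
Log2 ratio (y axis) of each gene's probe (round; Mutyh probe 1 square) in the 12 tumours (x axis), KO red and WT blue, with the local level ± SE as a black bar and carcinomas left of the dotted line. Mutyh probe 2 falls to between -3.21 and -2.39 in the KO tumours. The probes of Parp2 and Pcna stand above their local level mainly in KO1077, KO1111, WT1113 and WT1114. That of Ogg1 does so in these tumours and also in KO1414, WT1121 and WT1405.

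Ogg1, the glycosylase for oxidised guanine and the closest partner of Mutyh, was gained in 1 tumour, a WT one. Its probe read 0.00, -0.02 and 0.05 in the KO carcinomas, against 0.07 in WT1179, and 0.33, 0.28 and 0.09 in the KO lymphomas KO1077, KO1111 and KO1414, against 0.42, 0.47, 0.24, 0.70 and 0.02 in the WT lymphomas WT1113, WT1114, WT1121, WT1405 and WT1420. The local level was -0.09 to 0.02 in the 6 KO tumours, against -0.02 to 0.10 in 5 WT tumours and 0.47 in the untreated lymphoma WT1405. In that tumour Ogg1 lay in a called gain of 27.11 Mb with a mean of 0.51, and the mean of chromosome 6 was 0.52. Genes called gained made up 23.6% of all autosomal genes in WT1405, so Ogg1 shared its call there with many. Brpf1, 13.4 kb to the left, read 0.42 in WT1405 and Camk1, 11.3 kb to the right, read 0.43, and both lay between -0.14 and 0.21 in the other tumours.

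Ung, which removes uracil from DNA, was called lost in 1 tumour, the WT carcinoma. Its probe read -0.18, -0.05 and -0.06 in the KO carcinomas, against -0.81 in WT1179. In lymphomas it read 0.16, 0.10 and -0.46 in KO1077, KO1111 and KO1414, against 0.00, -0.03, -0.27, 0.18 and -0.20 in WT1113, WT1114, WT1121, WT1405 and WT1420. The local level was -0.02, 0.05 and 0.03 in the KO carcinomas, against -0.75 in WT1179, where the gene lay in a called segment of 7.43 Mb at -0.73, flanked on the right by a stretch near 0 and then by a gain. WT1179 had 15.2% of all autosomal genes in called losses. Shallower shifts of the Ung region ran in opposite directions in 2 untreated lymphomas, with a segment mean of -0.20 in KO1414 and 0.21 in WT1405, neither past the call threshold of 0.25. Alkbh2, a demethylase of alkylated DNA 8.4 kb to the left of Ung, read -0.73 in WT1179, and Acacb, 35.5 kb to the right, read -0.79.

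Set apart by tumour type, the Ung region in carcinomas compares 3 KO tumours with the single WT1179. Its local level averaged 0.02 ± 0.04 in the 3 KO carcinomas and -0.75 in WT1179, and -0.10 ± 0.10 in the 3 KO lymphomas and 0.01 ± 0.11 in the 5 WT lymphomas (SD). The limma interaction, the KO minus WT difference in carcinomas minus that in lymphomas, was 0.88 ± 0.13 with an adjusted p of 0.00283, in a fit in which 4.37% of genes passed. That p assumes that WT carcinomas vary as the other groups do, since WT1179 is the only one, so the value describes this tumour and not WT carcinomas as a group. On the Ung probe itself the interaction was 0.73 ± 0.24, with an adjusted p of 0.188.

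Mpg, the glycosylase for alkylated purines, was the member that was gained most often. Its local level was 0.51 in the treated KO lymphoma KO1111 and 0.32 in the untreated KO lymphoma KO1414, and also 0.27 in the untreated WT lymphoma WT1405. In the remaining tumours it was 0.12 in KO1077 and 0.01 to 0.02 in the KO carcinomas, against 0.02 in WT1179 and 0.02 to 0.11 in the other WT lymphomas. The groups overlap, since the KO carcinomas are as low as the lowest WT tumours. The probe itself, read from 5 spots, was 0.57 in KO1111, 0.49 in KO1414 and 0.40 in WT1405, and 0.09 to 0.23 in the other 9 tumours. It stood 0.02 to 0.20 above its local level in every tumour, so a reading above 0 is not by itself a gain.

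The 3 gains of Mpg differed in extent. The segment that held it spanned 10.62 Mb at 0.49 in KO1111 and 29.86 Mb at 0.30 in KO1414, against 99.65 Mb at 0.27 in WT1405. In KO1111 a further stretch at the left edge of the plotted window had running medians of 0.40 to 0.58, with 0.03 to 0.23 between it and the Mpg segment. Chromosome 11 as a whole averaged 0.11 in KO1111 and 0.08 in KO1414, against 0.27 in WT1405, so the gain was regional in both KO lymphomas and took in most of the chromosome in the WT lymphoma. Called gains covered 0.517% of autosomal genes in KO1111 and 0.941% in KO1414, against 23.6% in WT1405. In both KO lymphomas Mpg was the only one of 41 base excision repair genes in a called gain. Nprl3, 12.9 kb to the right of Mpg, read 0.42 in KO1111 and 0.21 in KO1414, against 0.20 in WT1405. Rhbdf1, 15.4 kb to the left and read by 1 probe, was 0.52 in KO1111 and only 0.05 in KO1414 and 0.11 in WT1405.

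**Figure D3:**
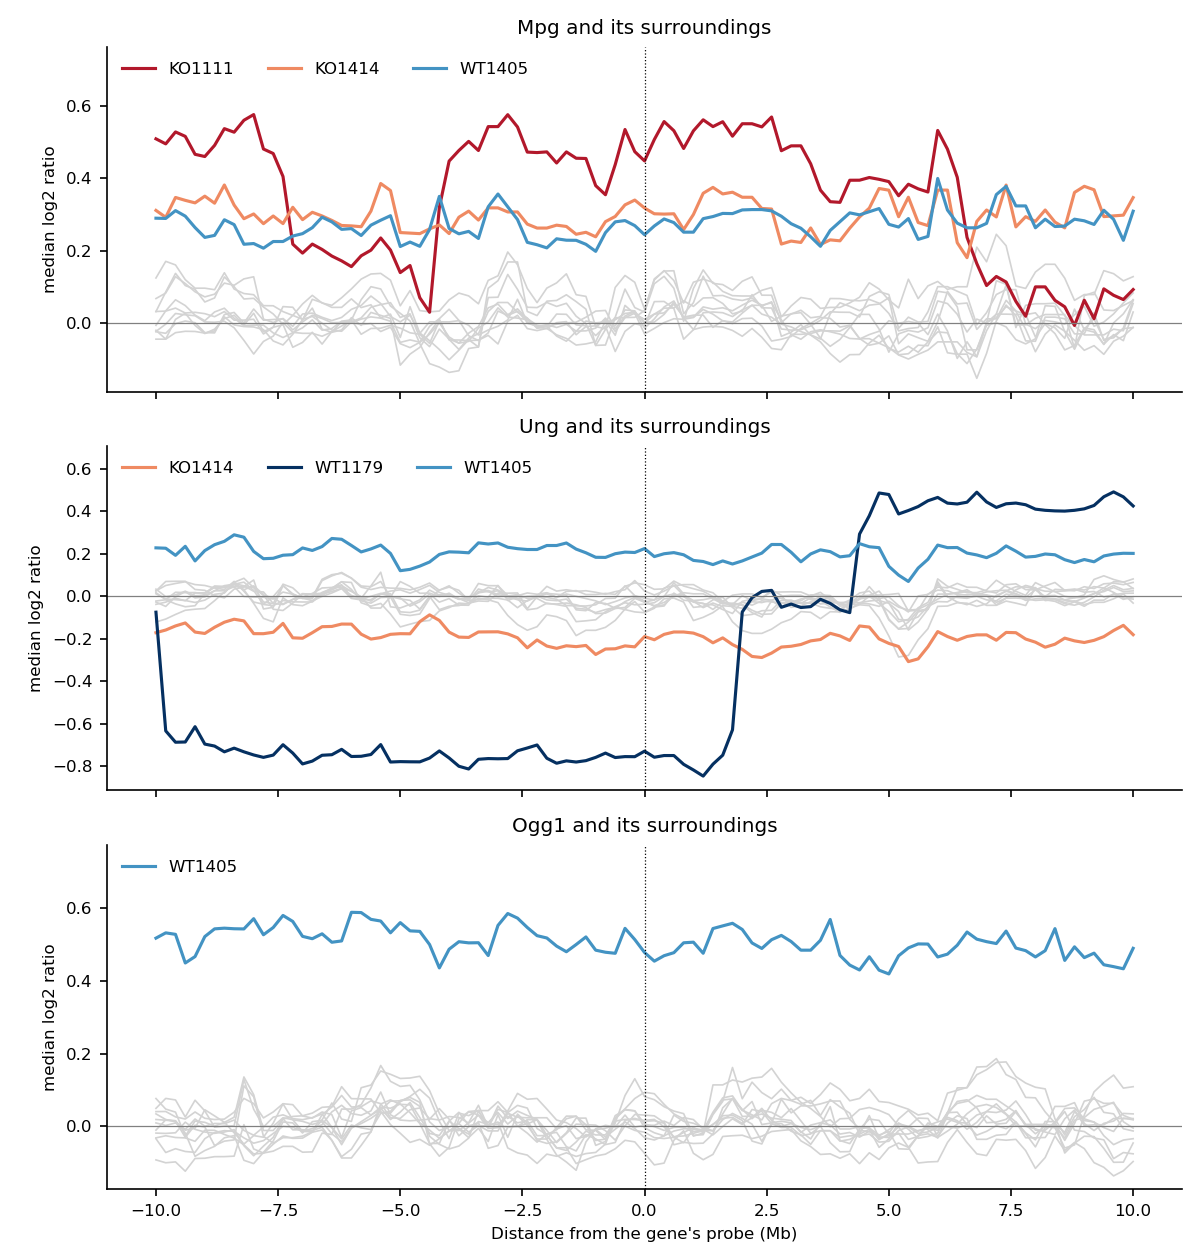
Running median of the log2 ratio (y axis, over probes within 250 kb) against the distance in Mb from the probe of Mpg, Ung or Ogg1 (x axis, 1 panel each), with the tumours named in the legends coloured and the others grey. The Mpg gain of KO1111 ends inside the window on both sides, with a further gained stretch at the left edge, while those of KO1414 and WT1405 run through it. The called Ung segment of WT1179 has a mean of -0.73, and the loss runs on to its left. WT1405 is gained along the whole Ogg1 window.

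For Mpg the exact permutation test of genotype within tumour type gave unadjusted two-sided p-values of 0.0357 for the gene value and 0.0491 for the local level, beside limma adjusted p-values of 0.846 and 0.859. These are 2 of 18 such tests on the 6 genes. Within slide 2 the local level was 0.12 and 0.51 in the KO lymphomas, against 0.06 and 0.11 in the WT lymphomas, and within slide 3 it was 0.32 in the KO lymphoma, against 0.04, 0.27 and 0.02 in the WT lymphomas. Within slide 1 it was 0.01, 0.02 and 0.02 in the KO carcinomas, against 0.02 in WT1179. Without KO1111 the difference in local level was 0.07, against 0.16 with it.

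Parp2 and Pcna lay in no called segment in any of the 12 tumours. Parp2 encodes a poly-ADP-ribose polymerase that responds to strand breaks, and its local level was -0.04 to 0.15 in KO tumours, against -0.04 to 0.06 in WT tumours. The highest was KO1111, with a segment mean of 0.21 over 45.6 Mb, below the call threshold. Pcna, the replication clamp, had the flattest region of the 6, with local levels of -0.03 to 0.04 in KO tumours, against -0.03 to 0.08 in WT tumours. Ttc5 and Tep1, on the left and right of Parp2, ranged from -0.17 to 0.21 over the tumours, and Slc23a2 and Cds2, on the left and right of Pcna, from -0.10 to 0.13.

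The single probes of Parp2 and Pcna varied more than their local levels, which are medians of 93 and 81 probes and so vary less than 1 probe. The Parp2 probe read 0.53 and 0.45 in KO1077 and KO1111 and 0.25 and 0.51 in WT1113 and WT1114, all on slide 2. On slide 3 it read -0.16 in KO1414, against -0.08, -0.20 and -0.19 in WT1121, WT1405 and WT1420, and on slide 1 -0.13, -0.15 and -0.17 in the KO carcinomas, against 0.05 in WT1179. The 4 tumours of slide 2 lay above the other 8 with no overlap, in both genotypes. The Pcna probe was likewise highest on slide 2, with 0.24 and 0.34 in the KO and 0.25 and 0.37 in the WT lymphomas of slide 2, against 0.04 to 0.14 on slide 3 and -0.07 to 0.05 on slide 1. For Ogg1, the probe stood 0.24 to 0.40 above its segment on slide 2, against 0.02 to 0.25 on slide 3 and -0.01 to 0.05 on slide 1.

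Such a difference between slides was present across the array and ran with brightness. Over 161457 autosomal probes, the probe minus its segment, slide 2 minus slide 3, correlated at -0.57 with the log2 reference signal and at -0.03 with G and C content, across probes that share the same arrays. Residuals from the segments correlated at 0.49 to 0.84 between the 18 pairs of arrays on the same slide and at 0.13 to 0.54 between the 48 pairs on different slides. For the Parp2 probe, the dimmest of the 7, the slide difference was 0.50, larger in size than that of 98.8% of autosomal probes. In the dimmest of 20 brightness bins the median was 0.21 and the 90th percentile 0.51, so among equally dim probes it was less unusual. The slide difference was 0.25 for Ung, 0.17 for Ogg1 and 0.17 for Pcna, and -0.06 for Mpg, -0.15 for Mutyh probe 1 and -0.01 for Mutyh probe 2. In the KO tumours Mutyh probe 2 formed a segment by itself, so its value there was 0 by construction. Its -0.01 is therefore not a measure of its slide difference.

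**Figure D4:**
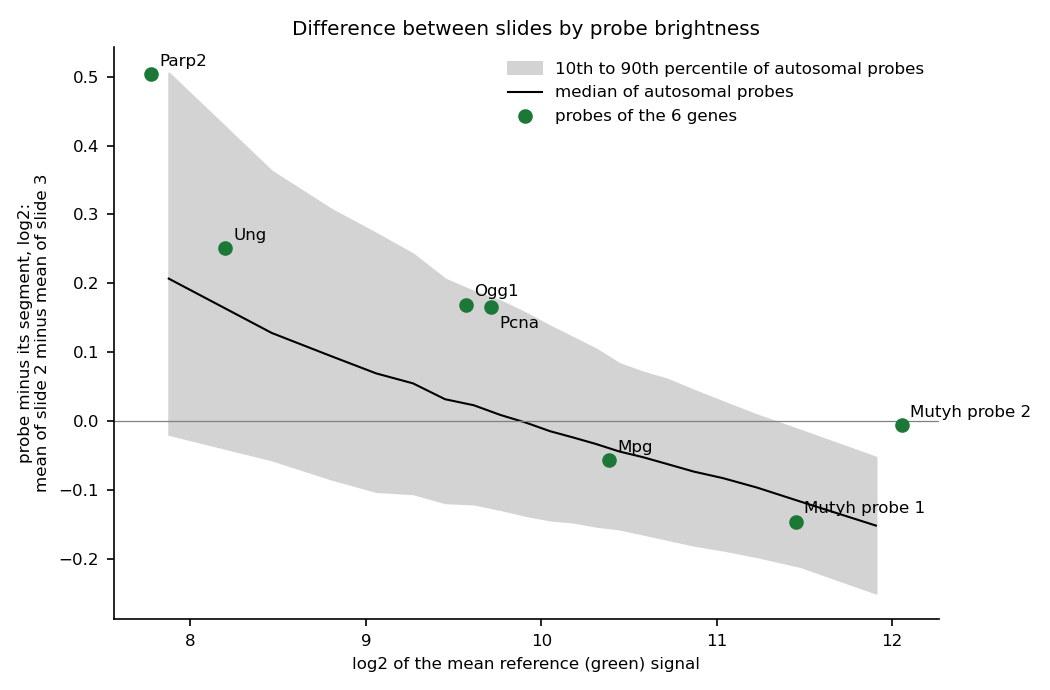
Probe minus its segment, mean of slide 2 minus mean of slide 3 in log2 units (y axis), against the log2 of the mean reference signal (x axis), with the autosomal probes as a median line and a 10th to 90th percentile band in 20 brightness bins and the 7 probes as green points. Dim probes read higher on slide 2 and bright ones lower, and the Parp2 probe, at 0.50, is the dimmest and highest of the 7. The point of Mutyh probe 2 does not measure its slide difference, since the probe is its own segment in KO tumours.

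Between tumour types, carcinomas were lower than lymphomas at Mutyh, Parp2 and Pcna by gene value, and at Mutyh alone by local level. On gene values, where 13.6% of genes passed (177 higher and 2585 lower), Mutyh differed by -0.61 ± 0.08 (adjusted p 0.000266), Parp2 by -0.45 ± 0.12 (adjusted p 0.0173) and Pcna by -0.28 ± 0.07 (adjusted p 0.0209) in limma, carcinoma minus lymphoma. Local levels, where 10.3% of genes passed, put Mutyh at -0.59 ± 0.09 (adjusted p 0.000451), Parp2 at -0.09 ± 0.04 (adjusted p 0.333) and Pcna at -0.04 ± 0.04 (adjusted p 0.624). Gene minus local level, where 13.3% of genes passed, was lower in carcinomas by -0.36 ± 0.11 for Parp2 (adjusted p 0.0475), -0.24 ± 0.05 for Pcna (adjusted p 0.0120) and -0.28 ± 0.05 for Ogg1 (adjusted p 0.00634). With slide as a random block these 3 differences were -0.31, -0.22 and -0.27 and did not pass (adjusted p 0.309, 0.139 and 0.0976), while Parp2 and Pcna still passed by gene value (-0.46 and -0.28, adjusted p 0.0103 and 0.0127) and Mpg and Parp2 passed by local level (-0.22 and -0.10, adjusted p 0.0278 and 0.0454). All carcinomas lie on slide 1, so such a fit cannot set slide apart from tumour type.

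The tumour type calls of single members depended on the tumours and settings used. By gene value Parp2 did not pass without KO1134, KO1077 or KO1111 (adjusted p 0.0511, 0.0796 and 0.0733) or in treated tumours only (0.0535), and Pcna did not pass without KO1080 or KO1111 (0.0577 and 0.0906) or centred on the median (0.0551). Ogg1 and Ung passed in treated tumours only, at -0.30 and -0.41 (adjusted p 0.00859 and 0.0329), Ogg1 also without WT1405 (0.0044) and Ung without KO1414 (0.0347). On segment means Parp2 differed by -0.08 and Pcna by -0.03. By gene minus local level Parp2 did not pass in 10 of 12 fits with 1 tumour left out and was -0.17 with normexp (adjusted p 0.128), and Ung passed without WT1121 (-0.21, adjusted p 0.0212).

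Between treatments, Fe-NTA against none, no gene passed on gene values, 0% of 20281, with 2129 at an unadjusted p under 0.05. Among the members Parp2 had the largest difference, at 0.51 ± 0.12 with a limma adjusted p of 0.208. By gene minus local level, for which 6.73% of genes passed, Parp2 was higher after Fe-NTA by 0.43 ± 0.11 (limma adjusted p 0.0463), and the other 5 members did not pass, at -0.12 to 0.19 with adjusted p-values of at least 0.0597. That Parp2 difference was 0.07 with slide as a fixed block. It was 0.32 with slide as a random block (limma adjusted p 0.289) and 0.13 with normexp background correction (0.251). It did not pass in 10 of 12 fits with 1 tumour left out, the exceptions being those without WT1179 and WT1121. Only slide 3 holds both treatments, with WT1121 as its 1 treated tumour. The fixed block value thus rests on that tumour and cannot decide between treatment and slide. The Parp2 probe averaged 0.33 ± 0.25 in the 5 treated lymphomas and -0.18 ± 0.02 in the 3 untreated lymphomas (SD). Of the treated lymphomas, 4 lie on slide 2, and the 1 on slide 3, WT1121, read -0.08. Once WT1121 is left out, each slide of lymphomas holds 1 treatment only, and the Parp2 difference in gene value was 0.62 with an adjusted p of 0.00476. In gene value the other 5 genes differed by -0.14 to 0.15.

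In all, members lay in called losses in 5 of 72 gene and tumour pairs, against 6.36% of the pairs of all autosomal genes. These were Mutyh in the 3 KO carcinomas and in WT1179, and Ung in WT1179. Called gains held members in 4 of 72 pairs, Mpg in KO1111, KO1414 and WT1405 and Ogg1 in WT1405, against 4.31% of the pairs of all genes. Centred on the median instead of the mode, the arrays gave 4 losses and 3 gains, as the calls of Mutyh in KO1134, at -0.28, and of Mpg in WT1405, at 0.27, were lost. The KO deletion of Mutyh is in none of these calls, because a call takes at least 5 probes and the deletion covers 1.

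The wider pathway was read from a list of 51 genes of base excision repair, the oxidised nucleotide pool and MUTYH's binding partners, of which 41 autosomal genes were named on the array. By genotype, 1 of 41 gene values passed, Mutyh itself, and 0 local levels did, with 2 of 41 at an unadjusted p under 0.05 in each. The 35 list genes that are not members differed by -0.13 to 0.20 in gene value, all with adjusted p-values of at least 0.846. The median difference was -0.02 over the list and -0.03 over all genes. By tumour type, 0 of 41 gene values were higher and 6 lower in carcinomas, or 14.6%, near the 12.7% of all genes that were lower, with a list median of -0.10 and a median over all genes of -0.09. By treatment, 0 of 41 gene values passed, with a list median of -0.01 and a median over all genes of 0.02. By gene minus local level 4 of 41 passed, or 9.76%, beside 6.73% of all genes. Parp2 was the one higher after Fe-NTA, and Tdg, a thymine glycosylase, Nudt18 and Pold1, the catalytic subunit of polymerase delta, were lower, at -0.16, -0.17 and -0.13 (limma adjusted p 0.037, 0.0405 and 0.029). By gene value Tdg, Nudt18 and Pold1 did not pass (limma adjusted p 0.624, 0.617 and 0.518). Slide and treatment largely coincide in the lymphomas, and most calls of this fit over all genes were lost with slide as a block.

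The list genes lower in carcinomas, beside Mutyh, Parp2 and Pcna, lay on chromosomes 4 and 12. Rpa2, a subunit of the single-strand binding protein RPA, on chromosome 4, was lower by -0.53 ± 0.09 (adjusted p 0.00112). Pole2, a subunit of DNA polymerase epsilon, on chromosome 12, was lower by -0.60 ± 0.10 (adjusted p 0.00116). Tdp1, which removes protein and other adducts from DNA ends, also on chromosome 12, was lower by -0.51 ± 0.12 (adjusted p 0.0113). Aptx, aprataxin, which repairs aborted ligation ends, on chromosome 4, passed by local level, at -0.58 ± 0.08 (adjusted p 0.000448 in limma), and its single probe did not follow its region, with gene minus local level at 0.35 ± 0.06. Mbd4, a thymine and uracil glycosylase, differed by 0.13 ± 0.03 in gene minus local level (adjusted p 0.0265).

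Called losses of list genes lay in the 4 carcinomas. KO1080 and KO1097 each had the same 5 of 41 list genes in called losses, Mutyh, Aptx, Tdp1, Pole2 and Rpa2, a share of 12.2%, beside 10.4% of all genes in KO1080 and 17.4% in KO1097. KO1134 had 9 of 41, or 22.0%, beside 31.9% of all genes. In KO1134 these were Mutyh, Aptx, Pole2 and Rpa2, the glycosylases Neil2, Neil3 and Tdg, the nucleotide pool hydrolase Nudt18, and Polb, the gap-filling polymerase. All of the KO1134 local levels lay between -0.33 and -0.26, just past the threshold, and 0 of the 9 were called when the array was centred on its median. WT1179 had 9 of 41 in called losses, or 22.0%, beside 15.2% of all genes, with Ung and Smug1, both uracil glycosylases, at -0.75 and -0.72 and Rfc1 and Pole at -0.75 and -0.76. No lymphoma of either genotype had a list gene in a called loss, and called losses held only 0 to 0.98% of all genes in the lymphomas.

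Called gains of list genes lay mostly in 1 WT tumour. The KO carcinomas had 0 and the KO lymphomas 2 such calls, both Mpg, while WT1179 had 2, Rfc2 and Rad1, and the WT lymphomas 20, of which WT1405 had 15. Those 15 were 36.6% of the list, beside 23.6% of all genes in that tumour, and only 4 of them were called with the array centred on its median. The 15 included the glycosylases Ogg1, Mbd4 and Nthl1. Called gains held 0.02 to 0.95% of all genes in the KO carcinomas and 0.02 to 0.94% in the KO lymphomas. They held 5.30% in WT1179, 8.59% in WT1113, 7.87% in WT1114, 3.85% in WT1121 and 0.02% in WT1420. In WT1113, WT1114 and WT1121 the list had 7.32, 4.88 and 0%. The lower list counts of the KO tumours thus go with fewer gains over all genes. No test of the genotype difference in list gains was made, since WT1405 holds most of it. WT1113 and WT1114 shared a gain of Pold3, a subunit of polymerase delta, at 0.49 and 0.39.

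**Figure D5:**
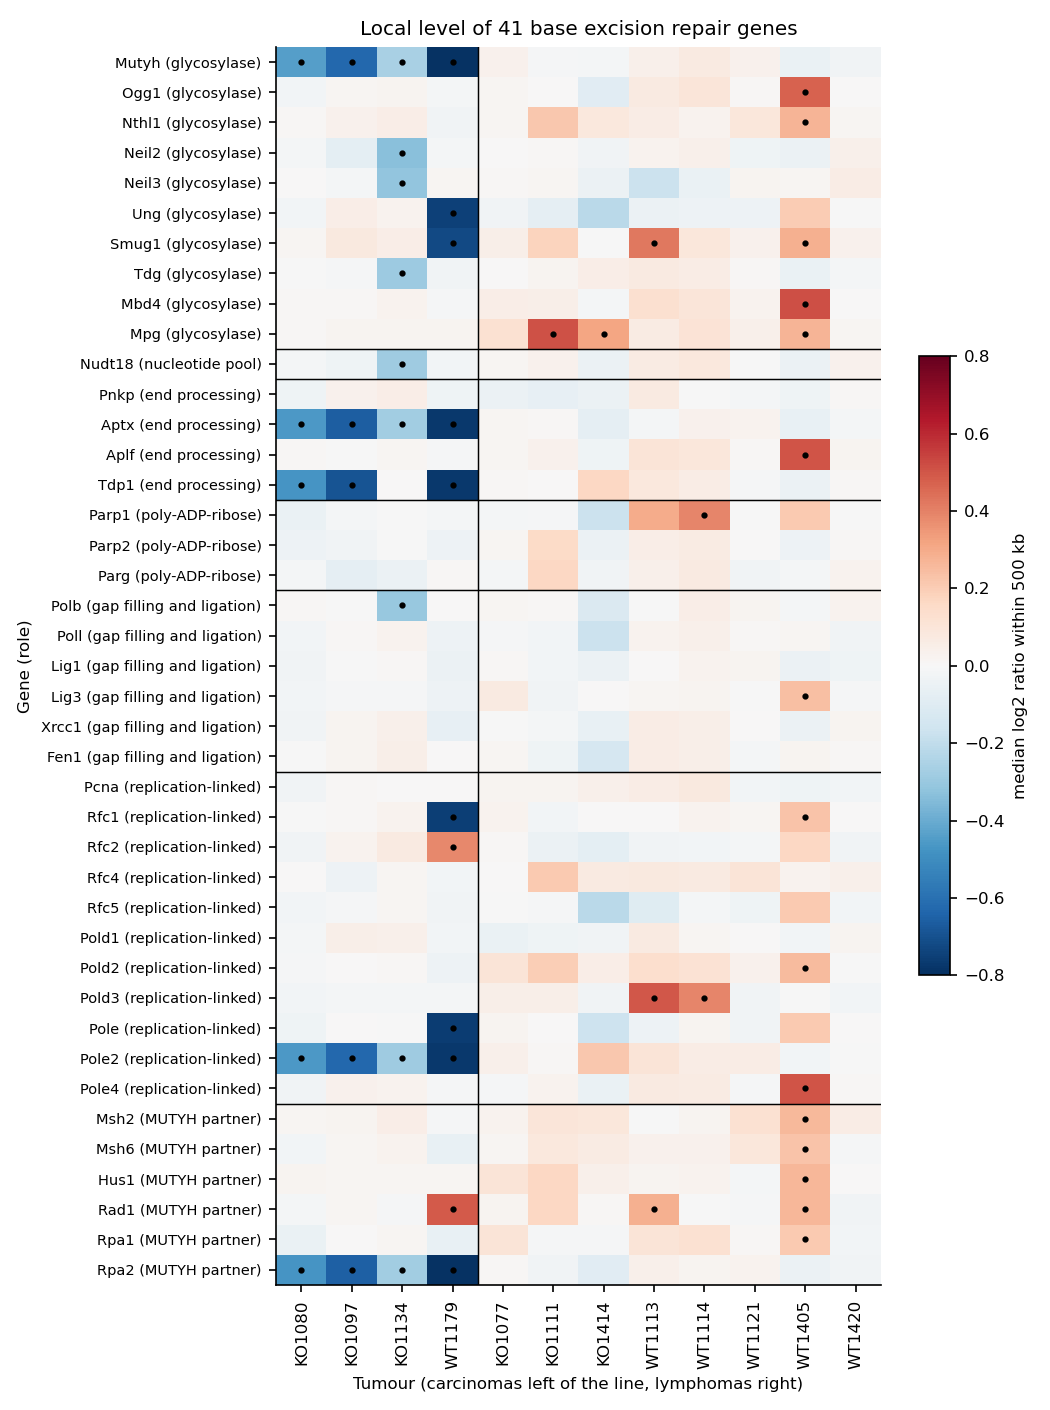
Local level, the median log2 ratio of the probes within 500 kb (colour), of 41 base excision repair genes (y axis, grouped by role) in 12 tumours (x axis, carcinomas left of the vertical line), with dots where the gene lay in a called segment. The losses are those of the 4 carcinomas, 28 calls in all, and 15 of the 24 gains are those of WT1405. Losses make up 5.69% and gains 4.88% of the list gene and tumour pairs, beside 6.36 and 4.31% of the pairs of all genes.

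The genes with the most similar profile over the 12 tumours differed in kind between the members. For Mutyh these were ENSMUST00000143340, more than 5 Mb away on chromosome 4, with Pearson's r of 0.995, and ENSMUST00000123300 on chromosome 2, with r of 0.958. Ogg1 was most like Ube2g1 and Nxn on chromosome 11 (r of 0.987 and 0.974), Ung like Mtf2 and D930016D06Rik on its own chromosome 5 (0.955 and 0.937), and Mpg like ENSMUST00000153153 and 0610010F05Rik on its own chromosome 11 (0.958 and 0.939). Parp2 was most like Slc22a8 on chromosome 19 and ENSMUST00000085789 on chromosome 7 (0.977 and 0.966), and Pcna like Mastl and Zfp106 on its own chromosome 2 (0.968 and 0.939). These are the highest of 12501 genes with at least 2 probes, over 12 tumours that share slides, and are given as a description.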

How the data were processed

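The deposited intensity values, background-subtracted and dye-normalized, were made with Agilent Feature Extraction 10.7.1.1, per the file headers, for 174305 spots of 170305 probes. The submitters' processing notes name version 10.7. The deposited log10 ratio column was not used, and the deposited series-wide log2 table, uncentred (r of at least 0.99994 with the scanner values), served as an alternative. Log2 of red over green was averaged per probe without outlier spots and centred on each array's autosomal mode, between -0.09 and 0.07. Gene values are means of probes, local levels are medians, and 31 gene names on several chromosomes were left out. limma 3.58.1 in R 4.3.3 was used for group tests. Segments came from penalised least squares with a penalty of 10, and were called at 0.25 from 0 over at least 5 probes. Both steps were also run on simulated data. That for limma drew the noise of each array independently, so it does not test the effect of shared slides. The number of arrays limits the precision.

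The members, lists and tests were chosen with earlier results of these data known. Named genes are the members, list genes that passed a test or lay in a called segment of a KO tumour, nearest neighbours, and the 2 genes most like each member. Nthl1, Rfc2, Rad1 and Pold3 are outside this rule and were chosen after their values were seen. Gene names are those of the array; of 51 list genes, 9 had no matching name, 1 lay on chromosome X and 41 were used. A further gene, not among the 51, is not reported here.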

Additional observations from a re-analysis of the deposited data

Results flagged for a closer look

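Of 48 sets of tumours examined for a member (gene value or local level; carcinomas, lymphomas, KO or WT tumours), 11 held a tumour far from the others. Chance alone sets apart about 1 in 20 such sets, and the sets share tumours, so they are not independent. WT1179 stood apart at Mutyh among WT tumours, in gene value (-0.79) and in local level (-0.79), at Ung in local level (-0.75) among both carcinomas and WT tumours, and at Parp2 in gene value (0.05) among carcinomas. WT1405 stood apart at Ogg1 in local level (0.47), among both lymphomas and WT tumours, and at Mpg in local level (0.27) among WT tumours. KO1111 stood apart at Parp2 in local level (0.15) among KO tumours. The tumours KO1414 at Ogg1 in local level (-0.09) among KO tumours and KO1080 at Pcna in local level (-0.03) among carcinomas also stood apart, in sets whose tumours all lay close to 0. The interaction of genotype and tumour type at the Ung local level (0.88) passed the limma test, and it rests on 1 WT carcinoma.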

How the results depend on the processing

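No paired analysis was possible because the labels number the animals and no number occurs in more than 1 group. Over the 48 differences given for members (3 genotype, 3 tumour type and 2 treatment measures of 6 genes), 1068 values under other settings kept direction and side of the threshold in 968 cases, lost the call in 40, gained it in 14 and turned direction in 46, with 0 of those 46 past the threshold. Mutyh kept its genotype call, which the KO allele itself sets, in gene value and in gene minus local level under every setting run. Alternatives not listed at the start, namely the tumour type fits on local level and on gene minus local level, the treatment fit on gene minus local level, the added settings for treatment and those for calls of the list, were chosen after seeing the data.

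Fitted on segment means, genotype called 8 genes instead of 13. Treatment called 0 genes on gene values, but 2 within lymphomas, 1 with slide as a fixed block and 0 to 478 with a tumour left out. It reached 478 without WT1121, 2 without WT1179 and 1 without WT1420. By gene minus local level treatment called 1365 genes, but 0 with slide as a random block, 16 with it as a fixed block, 41 within lymphomas, 17 with the chromosome mean in place of the local level and 0 to 4529 with a tumour left out, lowest without KO1414 and highest without WT1121. A threshold of 0.4 left 2 called gains of members. For the list, called losses were 28, and 19 both at a threshold of 0.4 and centred on the median. List gains were 24, and 40 at a threshold of 0.15, 9 at 0.4 and 13 centred on the median. The cause was not tested, beyond the thresholds themselves.

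The differences that turned were outside the threshold, and not all were small. That of Ung by local level in genotype went from 0.14 over all tumours to -0.12 within lymphomas. Within lymphomas the genotype difference was -0.01 for Ung by gene value, -0.01 for Mutyh and -0.12 for Ung by local level, and 0.01 for Ogg1 by gene minus local level. With slide as a fixed block it was -0.01 for Parp2 by gene value and -0.02 by gene minus local level, and -0.004 for Pcna by local level, while the treatment difference was -0.08 for Ogg1, -0.06 for Ung and -0.06 for Pcna by gene value, and -0.07 for Ung and -0.04 for Pcna by gene minus local level. With normexp, genotype gave -0.004 for Pcna by local level, -0.11 for Ung and -0.01 for Parp2 by gene minus local level, and tumour type gave 0.03 for Ogg1 by local level and 0.07 for Ung by gene minus local level. Other windows gave -0.005 (1 Mb) and -0.004 (250 kb) for Pcna by local level in genotype, and 0.01 (1 Mb) for Ogg1 in tumour type. Centred on the median, tumour type gave 0.05 for Ogg1 and 0.02 for Pcna by local level. With the chromosome mean in place of the local level it was -0.05 for Mpg. By segment means, treatment gave 0.04 for Mutyh, -0.10 for Ogg1 and -0.02 for Ung.

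With 1 tumour left out in turn, genotype by gene value ranged from -0.01 to 0.41 for Ung and from -0.01 to 0.18 for Parp2. By local level it ranged from -0.01 to 0.12 for Mutyh, -0.12 to 0.29 for Ung, -0.01 to 0.04 for Parp2 and -0.01 to 0.02 for Pcna, and by gene minus local level from -0.04 to 0.01 for Ogg1 and -0.02 to 0.16 for Parp2. Treatment ranged from -0.06 to 0.29 for Ogg1 and -0.17 to 0.34 for Ung. Tumour type by local level ranged from -0.03 to 0.05 for Ogg1 and -0.23 to 0.13 for Ung, and by gene minus local level from -0.04 to 0.04 for Mutyh. The probes of Parp2 and Ung were the dimmest of the 7, and the part of brightness in their values was not tested.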
